A study of Mus musculus with 5 samples.

Results

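Germ cell-like cells made in culture from a biparental stem cell line were compared with that line. The comparison sets the library ESC-PGCLC against the library of its parent line, female ESC, which are 2 of the 5 libraries of the series, with 1 library a side. Every CpG methylation level that all 5 libraries listed entered it: 154711 regions in 8 classes, of 168945 listed in ESC-PGCLC and 157458 in female ESC. The assay was reduced representation bisulfite sequencing (RRBS), in which DNA is cut with MspI at CCGG and CpG-rich fragments are read after bisulfite treatment. Levels are given as percent of CpG cytosines read as methylated in a region. With 1 library a group there is no replicate error and no p-value, and each difference describes these libraries. Read depth is unknown, because the deposited levels come without read counts.

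ESC-PGCLC were primordial germ cell-like cells of the C57BL6 strain, made from the female line through 46 h of epiblast-like culture with activin A and bFGF and 4 days of floating culture with BMP4, LIF, SCF and EGF, then sorted for CD61 and SSEA1 together. Female ESC were embryonic stem cells of the same strain, kept on feeder cells in medium with serum and LIF. Before induction the stem cells spent several passages in t2iL, a medium with inhibitors in place of serum, so the difference spans that step and the induction, and their parts cannot be told apart. The parthenogenetic line pESC, which has no paternal genome, and pESC-PGCLC, induced from it in the same way, are given beside the comparison, as are primordial germ cells (PGC) taken at stage E12.5 from fetal gonads with SSEA1 beads. A region can hold DNA of more than one cell type, and a change in the mix of cells cannot be told apart from a change within cells. Expression was not part of these data, so the identity of the sorted cells could not be checked on marker RNA.

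In the mouse embryo, germ cells are set aside from the epiblast by BMP signals and then lose most of their DNA methylation while they migrate to the gonad, first by dilution over cell divisions and later at imprinted and germline genes. Some retrotransposons of the IAP group keep part of their methylation through this phase. Cultured germ cell-like cells are used as a model of the early steps.

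The promoters of 4 genes named in the results below are shown. Peg3 had the maternally methylated region that differed most among the imprinted genes examined. Hormad1 and Sycp3 are a pair of meiotic genes with methylated islands. Pgk1 is an X-linked gene that was higher in ESC-PGCLC. Each sequence is the 250 bases before the gene start from RefSeq (build GRCm38.p6), 5′ to 3′ on the gene's strand. Capitals mark CCGG, the MspI site, and CACGTG, an E-box, a motif bound by basic helix-loop-helix proteins.
Peg3, chr7:6730420-6730669, minus strand: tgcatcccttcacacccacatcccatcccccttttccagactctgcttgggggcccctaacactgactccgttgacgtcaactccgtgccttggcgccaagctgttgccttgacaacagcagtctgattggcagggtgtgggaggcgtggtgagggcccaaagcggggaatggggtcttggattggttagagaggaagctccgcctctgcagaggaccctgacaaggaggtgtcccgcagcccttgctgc
Hormad1, chr3:95559427-95559676, plus strand: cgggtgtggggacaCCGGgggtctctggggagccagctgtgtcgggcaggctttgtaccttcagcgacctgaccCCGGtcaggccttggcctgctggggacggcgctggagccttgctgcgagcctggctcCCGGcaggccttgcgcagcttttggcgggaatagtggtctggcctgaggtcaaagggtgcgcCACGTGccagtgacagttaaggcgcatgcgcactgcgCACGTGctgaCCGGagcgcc
Sycp3, chr10:88459337-88459586, plus strand: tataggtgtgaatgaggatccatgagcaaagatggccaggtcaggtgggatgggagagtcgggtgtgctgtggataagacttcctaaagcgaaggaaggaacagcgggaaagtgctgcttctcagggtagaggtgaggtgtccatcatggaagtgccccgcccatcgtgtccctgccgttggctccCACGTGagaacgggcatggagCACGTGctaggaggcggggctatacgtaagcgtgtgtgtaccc
Pgk1, chrX:106186850-106187099, plus strand: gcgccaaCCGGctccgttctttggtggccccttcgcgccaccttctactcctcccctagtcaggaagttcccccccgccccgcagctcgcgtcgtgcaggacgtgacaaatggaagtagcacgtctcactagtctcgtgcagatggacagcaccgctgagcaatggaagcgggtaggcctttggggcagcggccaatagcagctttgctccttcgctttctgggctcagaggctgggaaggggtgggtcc
Both motifs read the same on either strand and do not overlap each other. A CCGG was present in 47.1% of 32851 promoter windows of this length, and in 85.8% of the 7688 windows that overlap the measured region of their gene. The Peg3 and Sycp3 windows held none, so the MspI cuts that gave their levels lay outside the window. The Peg3 window also begins past the end of the Peg3 island (chromosome 7, 6730062 to 6730398). That island and its shore gave the same values, so the sites read for Peg3 lay outside the window.

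ESC-PGCLC was the less methylated library of the pair. Over all regions the mean level was 24.95% in ESC-PGCLC and 27.8% in female ESC, lower by 2.84 percentage points or 10.2% of the female ESC level, and 65.3% of regions were lower. Repeats had means of 45.3% in ESC-PGCLC and 50.2% in female ESC, and 3′ UTRs 37.4% and 42.5%. These were the widest gaps in points among the 8 classes, at 4.95 and 5.11 points.

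Introns averaged 26.5% in ESC-PGCLC and 29.6% in female ESC, exons 20.6% and 23.0%, and promoters 15.4% and 17.2%. CGI shores, the flanks of CpG islands, averaged 12.46% in ESC-PGCLC and 14.29% in female ESC. As shares of the female ESC level, these losses were 10.5% in introns, 10.5% in exons, 10.4% in promoters, 12.8% in shores, 12.0% in 3′ UTRs and 9.85% in repeats. Relative loss thus spanned a narrower range than the loss in points.

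CpG islands (CGIs) and 5′ UTRs were nearly free of methylation on both sides. CGIs averaged 3.67% in ESC-PGCLC and 3.91% in female ESC, and 5′ UTRs 4.54% and 4.89%. Their medians went the other way: the median CGI was at 1.65% in ESC-PGCLC and 1.54% in female ESC, and 42.7% of CGIs and 44.7% of 5′ UTRs were lower. Non-CpG (CHH) cytosines, which report unconverted or non-CpG methylated bases, averaged between 0.732% and 0.78% in ESC-PGCLC and between 0.587% and 0.637% in female ESC over the 8 classes. With that level taken out, the median difference in CGIs was -0.0656 points, against 0.0708 as deposited. The CGI mean difference of -0.237 points was -0.0346 points over the CGIs of more than 400 bp.

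The parthenogenetic induction gave smaller relative losses in each class. pESC-PGCLC and pESC averaged 43.2% and 46.3% in repeats, a loss of 6.72%, and 12.1% and 12.9% in shores, a loss of 6.54%. Promoters averaged 14.6% in pESC-PGCLC and 15.9% in pESC, a loss of 7.75%, and 3′ UTRs 35.9% and 38.5%, a loss of 6.67%. Introns were nearest to the biparental value, at 9.80%, followed by exons at 9.42%. PGC averaged 40.8% in repeats and 13.8% in promoters, below both kinds of germ cell-like cells. The difference between the inductions was not tested.

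**Figure D1:**
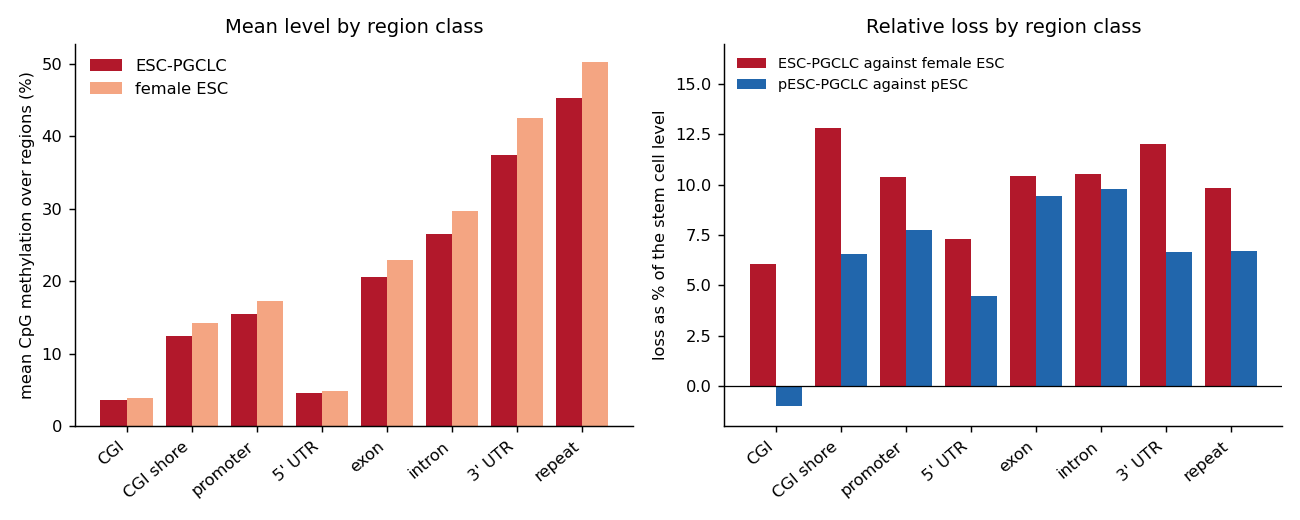
Left, mean CpG methylation (%) over the regions of each of 8 classes in ESC-PGCLC (dark) and female ESC (light). Right, the loss as percent of the stem cell level in the biparental (red) and parthenogenetic (blue) inductions; repeats show 9.85% and 6.72%, and CGIs 6.07% and -0.995%.

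How much a region differed went with its level. Regions were grouped by their level in pESC, a library on neither side of the difference, so that noise in the compared levels does not sort them. Among regions under 2% in pESC, ESC-PGCLC averaged 1.73% and female ESC 1.59%, and 37.6% were lower. Between 20% and 40%, levels were 30.02% in ESC-PGCLC and 34.83% in female ESC, a loss of 13.8%. Between 40% and 60% they were 47.6% and 53.8% (11.4%), between 60% and 80% 65.7% and 71.4% (8.09%), and from 80% up 81.1% and 85.4% (5.12%).

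In points, repeats were lower by 5.07 between 20% and 40%, by 5.73 between 40% and 60%, by 5.59 between 60% and 80% and by 4.23 from 80% up. Promoters were lower by 5.36, 6.66, 5.78 and 3.84 points in the same bins. Methylated CGIs were lower too: between 40% and 60% in pESC, 143 CGIs averaged 48.4% in ESC-PGCLC and 55.0% in female ESC, and 20520 repeat entries 47.8% and 53.5%. Between 60% and 80% CGIs were lower by 7.80 points and repeats by 5.59, and from 80% up 15 CGIs by 2.78 and repeats by 4.23. The low class mean of CGIs is thus made of many islands near 0 and a smaller number with losses of several points.

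**Figure D2:**
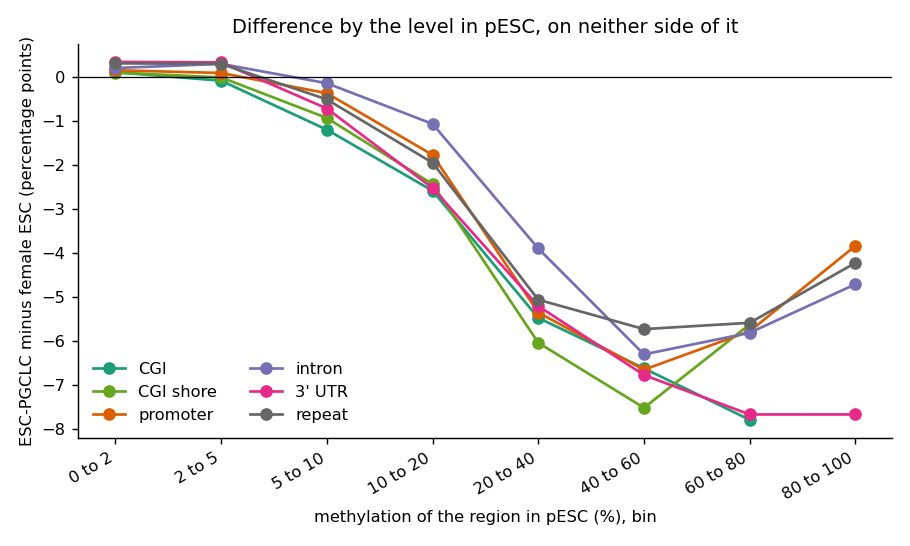
Mean difference, ESC-PGCLC minus female ESC, in percentage points (y) for regions binned by their level in pESC (%, x), for 6 region classes and bins of at least 20 regions. The lines leave 0 above 5% and reach -5.07 points for repeats between 20% and 40%.

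Genes were split by the level of their promoter in pESC. The 11408 with a promoter under 5% had promoter means of 2.17% in ESC-PGCLC and 2.04% in female ESC, and exon means of 10.20% and 11.02%. Their introns averaged 17.8% and 19.5%, a loss of 8.65%, and their 3′ UTRs 36.9% and 41.7%, a loss of 11.5%. By the mean, the bodies of genes with unmethylated promoters were therefore lower in ESC-PGCLC while their promoters were not. Their median exon difference was only -0.0261 points, with 51.5% of exons lower. For introns it was -0.49 points, with 60.8% lower. The 3666 genes with a promoter of at least 40% averaged 53.7% in ESC-PGCLC and 60.1% in female ESC at the promoter, a loss of 10.5%, and 39.4% and 44.8% in introns, a loss of 11.9%.

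Regions that differed by 25 points or more, the size used here in place of a test, were rare. In repeats 1042 of 46641 were lower (2.23%) and 375 higher (0.804%). Promoters had 77 lower (0.378%) and 21 higher (0.103%), introns 91 lower (0.456%) and 38 higher (0.19%), and exons 90 lower (0.435%) and 47 higher (0.227%). In 3′ UTRs 56 were lower (1.26%) and 11 higher (0.247%), in shores 58 lower (0.347%) and 22 higher (0.132%), and in 5′ UTRs 13 lower (0.112%) and 4 higher (0.0343%). CGIs had 8 lower (0.0563%) and 1 higher (0.00704%).

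To take out the relative loss of each class, female ESC levels were multiplied by the ratio of the class means, ESC-PGCLC over female ESC. The balance was then more even: 559 repeats were lower and 451 higher, 33 and 23 promoters, 25 and 25 shores, 43 and 44 introns, and 42 and 52 exons. Part of these calls sat at extreme values. Of the repeat calls, 163 of the 1042 lower and 159 of the 375 higher entries stood at exactly 0 or 100% in one library of the pair, and without such entries 216 were higher. Repeat entries spanning under 100 bases of their consensus had a standard deviation of the difference of 11.4 points over entries, against 6.33 points for those spanning 1000 or more. The parthenogenetic induction shares no library with this one. Of the 1042 repeat entries lower here, 75 were among the 410 that were 25 points lower there. These are 18.3% of the list there, beside 2.23% of all repeats lower here. They are 7.20% of the list here, beside 410 of all 46641 repeats lower there. In 3′ UTRs 17 were shared, 51.5% of 33 there (beside 1.26%) and 30.4% of 56 here (beside 33 of 4445). In promoters 4 were shared, 14.8% of 27 there (beside 0.378%) and 5.19% of 77 here (beside 27 of 20388). In CGIs 2 were shared, of 4 there (beside 0.0563%) and of 8 here (beside 4 of 14214). The overlap was not tested, and regions near 0 cannot be 25 points lower in either pair.

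The 8 islands that were lower were mostly short. Of these, 5 lay at a gene, and each of those 5 was under 400 bp. The island in Clstn2, which encodes a calsyntenin of synapses (chromosome 9, 97701065 to 97701306), was at 42.9% in ESC-PGCLC and 80.3% in female ESC. Lmtk3, a membrane kinase gene, was at 44.2% and 69.3%. Ldoc1, an X-linked gene derived from a retrotransposon, was at 27.1% in ESC-PGCLC and 52.6% in female ESC, while pESC-PGCLC and pESC stood at 30.2% and 36.1%. The gene models Gm9008 and Gm16372 were at 17.8% against 46.2% and 33.8% against 59.8%; only Gm16372 was also 25 points lower in the parthenogenetic pair, at 24.5% in pESC-PGCLC and 49.5% in pESC.

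The other 3 had no gene within 1000 bp. The island on chromosome 13 (119836757 to 119837075) was at 15.4% in ESC-PGCLC and 57.7% in female ESC, but at 10.97% in pESC-PGCLC and 13.81% in pESC. That on chromosome 10 (11491978 to 11492222) was at 44.67% in ESC-PGCLC and 85.03% in female ESC. A long island of 4182 bp placed on chromosome Y (90825140 to 90829322) was at 32.5% in ESC-PGCLC and 72.2% in female ESC. It was at 46.2% in pESC-PGCLC and 71.9% in pESC. It lies in the part of the Y that is shared with the X, so its reads do not require a Y chromosome. Another Y island (90740952 to 90744975), given after values were seen, was at 34.1% in ESC-PGCLC and 45.6% in female ESC. It was at 55.3% in pESC-PGCLC and 60.9% in pESC, and whether its sequence is shared with the X was not examined.

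Among islands of at least 400 bp below that size of difference, Traip, a ubiquitin ligase gene of the replication machinery, was at 12.7% in ESC-PGCLC and 33.9% in female ESC. Rhpn1, which encodes rhophilin, was at 1.13% and 18.9%, a level that pESC-PGCLC (3.06%) and pESC (2.48%) did not have. Kcnn1, a potassium channel gene, was at 55.2% against 71.6%, Ch25h, the cholesterol 25-hydroxylase gene, at 15.7% against 32.0%, and Majin, which helps tether meiotic telomeres to the nuclear envelope, at 13.3% against 27.8%.

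One island was 25 points higher. It lies in Polrmt, the mitochondrial RNA polymerase gene (chromosome 10, 79739313 to 79739593), at 62.6% in ESC-PGCLC and 21.1% in female ESC; pESC-PGCLC, pESC and PGC stood at 50.5%, 52.2% and 42.8%, so female ESC was the low library there. The next islands of at least 400 bp were in Fat1, an atypical cadherin gene (77.7% in ESC-PGCLC, 65.3% in female ESC), Niban1 (11.1% and 0%), the gene model Gm5522 (39.4% and 28.9%), Tfap2b, a transcription factor gene (15.2% and 5.00%), and Nefm, a neurofilament gene (21.8% and 12.1%). Pgk1, the X-linked phosphoglycerate kinase gene whose promoter is shown above, was at 9.66% in ESC-PGCLC and 0.641% in female ESC, with 1.62% in pESC-PGCLC, 1.66% in pESC and 1.71% in PGC. Kpna6, an importin gene, was at 8% against 0%, Ppp4r1l-ps at 6.76% against 0%, and the island shared by Rabgap1 and Zbtb26 at 8.51% against 2.86%.

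Repeat families were nearly all lower in ESC-PGCLC: of 159 families with at least 50 entries, 158 had a lower mean. The median loss over families was 10.8% of the female ESC level, with a range of -2.17% to 16.9%. LINE/L1 elements, the autonomous retrotransposons of the mouse, averaged 49.9% in ESC-PGCLC and 55.1% in female ESC over 21176 entries, a loss of 9.34%. LTR/ERVK elements, the endogenous retroviruses that include IAP, averaged 49.9% and 54.3%, a loss of 8.22%. LTR/ERV1 elements averaged 48.7% and 52.7%, a loss of 7.73%. The short, non-autonomous SINEs lost more in relative terms, with B2 at 39.0% against 44.0% (11.4%), B4 at 37.9% against 42.7% (11.2%) and MIR at 34.2% against 39.4% (13.3%).

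The widest gaps in points were at L1_Mur3, an older L1 family (47.8% in ESC-PGCLC, 56.6% in female ESC), MLT1D, a MaLR element (44.8% and 53.3%), the SINE B2_Mm1a (46.8% and 55.2%), L1Lx_III (44.1% and 51.9%) and Lx6 (49.3% and 57.1%). In pESC-PGCLC and pESC the same 5 families were 2.80 to 4.44 points apart. At the other end, RMER17C was at 28.1% in ESC-PGCLC and 27.5% in female ESC, MuRRS4-int at 61.4% and 62.4%, MMETn-int at 65.1% and 67.2%, IAPEz-int at 73.3% and 75.6%, and RLTR1B-int at 52.5% and 55.1%. Without entries at exactly 0 or 100%, RMER17C was lower by 0.314% of its level and MuRRS4-int by 3.05%, against 1.51% with them.

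The internal, coding parts of endogenous retroviruses, whose names end in int, made up 10 of the 11 families with a loss under 5%. Over the 19 such families the median loss was 4.99%, with a range of 1.51% to 16.6%; the MaLR families ORR1A3-int (33.9% in ESC-PGCLC, 40.6% in female ESC) and ORR1B1-int (34.9% and 40.9%) were at the upper end. The 6 families with IAP or ETn in their name, whether or not it ends in int, lost between 3.07% and 6.05% from levels of 62.1% to 75.6%. These are also among the more methylated families, and high levels went with small relative losses in the bins above. Within the same pESC bins, IAPEz-int had a smaller median difference than L1 elements in each bin given here, while the gap in means varied. Levels within a bin were not matched. Between 40% and 60%, female ESC averaged 59.0% at IAPEz-int and 52.7% at L1 elements. Between 40% and 60% in pESC, 26 IAPEz-int entries were lower by a mean of 5.05 points and L1 elements by 5.24 points. Their median differences were -2.82 and -4.77 points, and the 26 entries had a standard deviation of 15.1 points. Between 60% and 80%, 225 IAPEz-int entries averaged 72.8% in ESC-PGCLC and 75.6% in female ESC, lower by 2.84 points, and all IAP families together were lower by 3.90 points. In the same bin L1 elements averaged 65.99% and 71.37%, lower by 5.38 points, ERVK elements other than IAP 67.5% and 72.3%, lower by 4.81 points, and SINEs 64.4% and 72.1%, lower by 7.64 points. The medians in that bin were -2.97 points for IAPEz-int and -4.70 for L1. From 80% up, 73 IAPEz-int entries had a mean difference of 0.156 points and a median of -1.42. L1 elements had -4.94 and -4.06 there. IAPEz-int in the parthenogenetic pair was at 70.9% in pESC-PGCLC and 73.0% in pESC, a loss of 2.97%, and at 68.5% in PGC. The difference between IAP and other repeats was not tested. Over the 159 families the loss in the biparental and the parthenogenetic induction had a Pearson correlation of 0.626 and a Spearman correlation of 0.537, a description of 2 pairs of libraries in which families share the CpG content and age of their sequence.

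**Figure D3:**
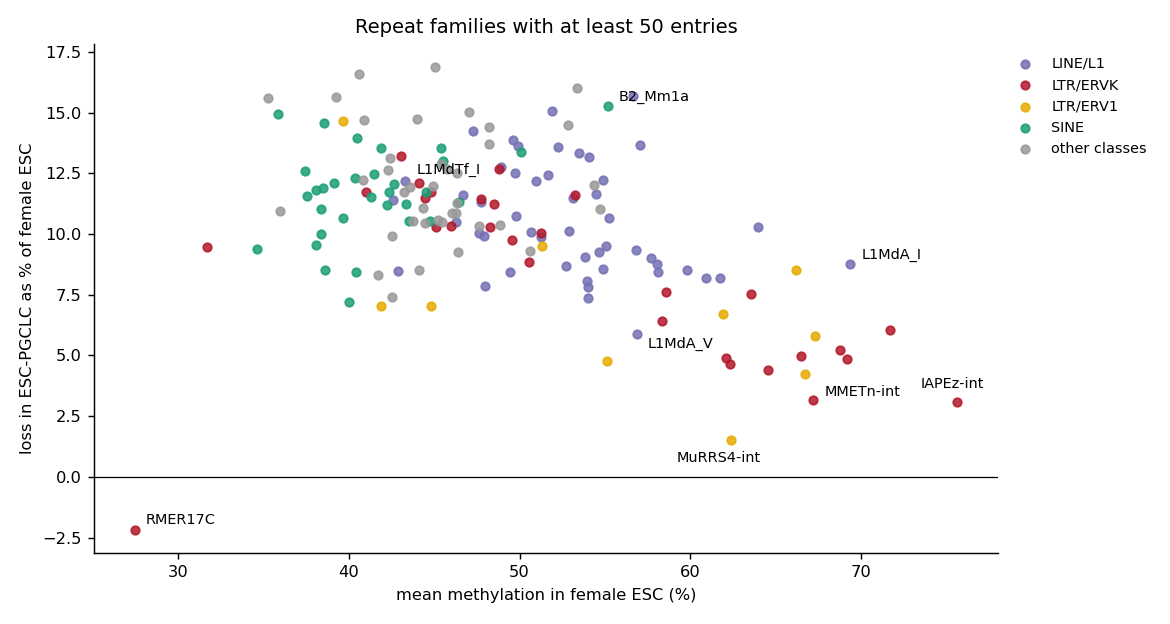
Loss in ESC-PGCLC as percent of the female ESC level (y) against the mean level in female ESC (%, x) for 159 repeat families, coloured by class. Families sit around a median of 10.8%; IAPEz-int (3.07%) and other int families lie low at the right, and RMER17C (-2.17%) lies below 0.

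Imprinted genes carry methylation on the allele of one parent only, and a biparental line is expected to hold a methylated and an unmethylated copy. The list of genes that inherit methylation from the mother had 21 members, 17 of them measured. Of these, 12 were lower and 5 higher in ESC-PGCLC. Among all 12078 protein-coding genes with a region 40.7% were lower, and among the 335 at 20% or more in pESC 88.7%. The list medians were 7.33% in ESC-PGCLC and 15.1% in female ESC, with a median difference of -0.982 points, or -0.0824 points over the CGIs alone. All 17 regions are given here.

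Peg3, which encodes a zinc finger protein and is expressed from the paternal allele, was at 12.2% in ESC-PGCLC and 36.2% in female ESC, a difference of -24.1 points; pESC-PGCLC and pESC stood at 58.8% and 65.7% and PGC at 50.3%. The Peg3 island and its shore gave the same value in every library, so they hold the same measured sites. The shore of Gnasas1, an antisense transcript at Gnas, was at 6.18% in ESC-PGCLC and 17.8% in female ESC, and at 21.1% and 40.9% in pESC-PGCLC and pESC. Nap1l5, a nucleosome assembly protein gene inside Herc3, was at 14.5% against 22.8%, and Peg13, a noncoding RNA gene, at 33.0% against 36.9%. Nnat was at 11.7% against 15.1% and the shore of Cdh15, a cadherin gene, at 69.4% against 75.1%. The shore of Fkbp6 was at 49.0% against 51.9%, and that of Slc38a4, an amino acid transporter gene, at 7.33% against 8.62%. In pESC the shores of Cdh15 and Fkbp6 stood at 73.5% and 54.0%, near their female ESC levels. Both count among the lower members of this list, and Fkbp6 is also a member of the piRNA list below.

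Kcnq1ot1, the antisense RNA that silences the Kcnq1 domain, was higher, at 20.5% in ESC-PGCLC and 16.7% in female ESC, and the parthenogenetic pair had 75.02% in pESC-PGCLC and 67.70% in pESC. Several islands that are methylated in the parthenogenetic pair were near 0 on both sides here. Airn, the RNA that silences Igf2r, was at 1.03% in ESC-PGCLC and 2.01% in female ESC, with 62.1% in pESC-PGCLC and 61.2% in pESC. Zrsr1 was at 1.61% and 1.60%, Peg10 at 3.22% and 3.25% and Plagl1 at 2.47% and 1.35%, where pESC-PGCLC and pESC had 43.0% and 41.0%, 34.3% and 39.1%, and 22.7% and 28.7%. Mcts2 was low in both pairs, at 1.39% in ESC-PGCLC and 1.53% in female ESC, and 4.90% in pESC-PGCLC and 6.14% in pESC. The islands at the gene ends of Gnas (2.63% and 2.08%), Grb10 (2.03% and 1.84%) and Inpp5f (16.1% and 16.1%) were within 1 point. In pESC, which has no paternal genome, these islands stood at 2.77%, 1.59% and 12.0%, and the Slc38a4 shore at 3.74%. Maternal methylation should show in that line, so regions this low there may not be the maternally methylated ones of their genes. They count among the 17, in the numbers lower and higher and in the list medians all the same.

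Other islands inside or near these genes were chosen after values were seen. Within Gnas, the island at chromosome 2, 174297262 to 174297532, was at 10.6% in ESC-PGCLC and 18.9% in female ESC, and that at 174298463 to 174300644 at 13.2% and 19.7%. The inner island of Inpp5f was at 16.7% against 26.1%, and that of Impact at 20.99% against 18.96%. Another Grb10 island (chromosome 11, 12025554 to 12026580) was at 1.87% in ESC-PGCLC and 1.74% in female ESC. It was at 22.6% in pESC-PGCLC and 20.5% in pESC. Of 23 islands in or within 1000 bp of a listed gene, 17 had at least 20% in pESC. Of these 17, 6 were under 5% in both ESC-PGCLC and female ESC. Lower in ESC-PGCLC were 11 of the 17, beside 88.7% of the protein-coding genes with a region at that pESC level. Over the 17, the mean was 17.3% in ESC-PGCLC and 21.0% in female ESC, 46.8% in pESC-PGCLC and 50.9% in pESC, and 41.3% in PGC.

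Of 6 genes listed with paternal methylation, 2 had a region at a gene end: Dlk1 at 1.57% in ESC-PGCLC and 1.28% in female ESC, and Rasgrf1 at 2.13% and 2.23%. Inside the Dlk1 gene, an island of 284 bp, chosen after values were seen, was at 25.1% against 35.0%.

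**Figure D4:**
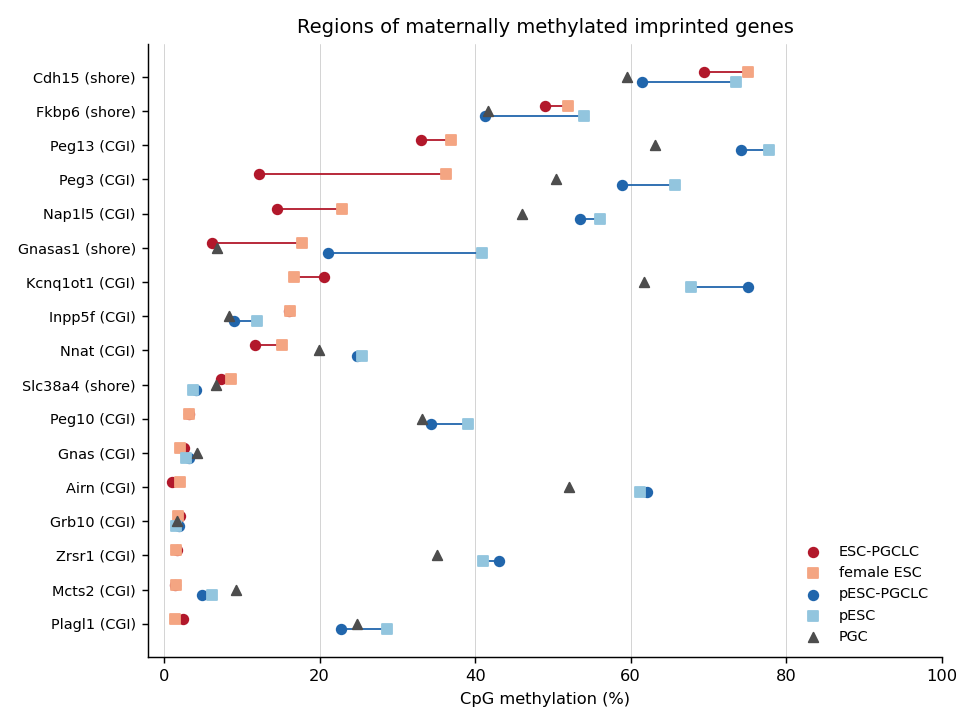
CpG methylation (%, x) of the region of each of 17 maternally methylated imprinted genes (rows) in the 5 libraries; lines join ESC-PGCLC to female ESC (red) and pESC-PGCLC to pESC (blue). Peg3 spans 12.2% to 36.2% on the biparental side, while Airn lies near 0 there and at 62.1% in pESC-PGCLC. Some regions drawn were low in pESC too, such as those of Gnas (2.77%) and Grb10 (1.59%).

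Germline genes act in meiosis, in the piRNA pathway against transposons or in the testis, and many have islands that are methylated outside the germ line. The joined lists had 42 measured members of 72, of which 27 were lower and 15 higher in ESC-PGCLC; the median level was 14.8% in ESC-PGCLC and 16.5% in female ESC. Of the 42, 14 were under 5% in both libraries. Members with a region of at least 20% in pESC numbered 17, 13 of them lower, with a median difference of -3.69 points. Over all 335 protein-coding genes with such a region, 88.7% were lower and the median difference was -6.30 points.

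Of 17 measured meiotic genes, 9 were lower, beside 40.7% of all protein-coding genes and 88.7% of those at 20% or more in pESC. Hormad1, a protein of the meiotic chromosome axis, was at 15.7% in ESC-PGCLC and 23.6% in female ESC, with 10.1% and 14.7% in pESC-PGCLC and pESC; its promoter above holds 4 MspI sites and 2 E-boxes. Sycp3, a component of the synaptonemal complex, was at 48.0% against 54.4%, and at 45.4% and 49.0% in the parthenogenetic pair. Stra8, which gates entry into meiosis, was higher on its shore, at 52.4% in ESC-PGCLC and 49.9% in female ESC, while pESC-PGCLC was below pESC (39.2% and 42.2%). Dazl, an RNA-binding protein gene of the germ line named here after its values were seen, was at 22.9% against 25.5%, with 16.3% in PGC.

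Of 13 measured piRNA and germ granule genes, 9 were lower, beside the same 40.7% and 88.7%. Tdrd12 and Tdrd1, Tudor domain genes of the piRNA pathway, were at 56.8% against 68.1% and 54.3% against 65.4% on their shores, and the parthenogenetic pair was lower by 12.6 and 10.8 points. Mov10l1, a helicase gene needed for piRNA production, was at 63.2% against 68.0%. Tdrd6 went the other way, at 22.4% in ESC-PGCLC and 14.2% in female ESC, against 12.3% in pESC-PGCLC and 32.6% in pESC. Of 12 testis-expressed genes, 9 were lower, again beside 40.7% and 88.7%: Adad1 was at 37.7% against 46.2% and Dpep3, a dipeptidase gene, at 69.2% against 74.5%. Nxt2, an X-linked gene of RNA export, was at 11.5% in ESC-PGCLC and 0.732% in female ESC, with 6.67% in pESC-PGCLC and 0.463% in pESC, and Taf7l, an X-linked transcription factor gene of the testis, at 30.2% against 24.9%.

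A CACGTG E-box was present in the promoter window of 9 of 15 germline genes with at least 20% in pESC and a promoter sequence (60%), of 9.52% of 273 protein-coding genes at that level, and of 6.86% of 27025 genes. A match says only that the letters are there.

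**Figure D5:**
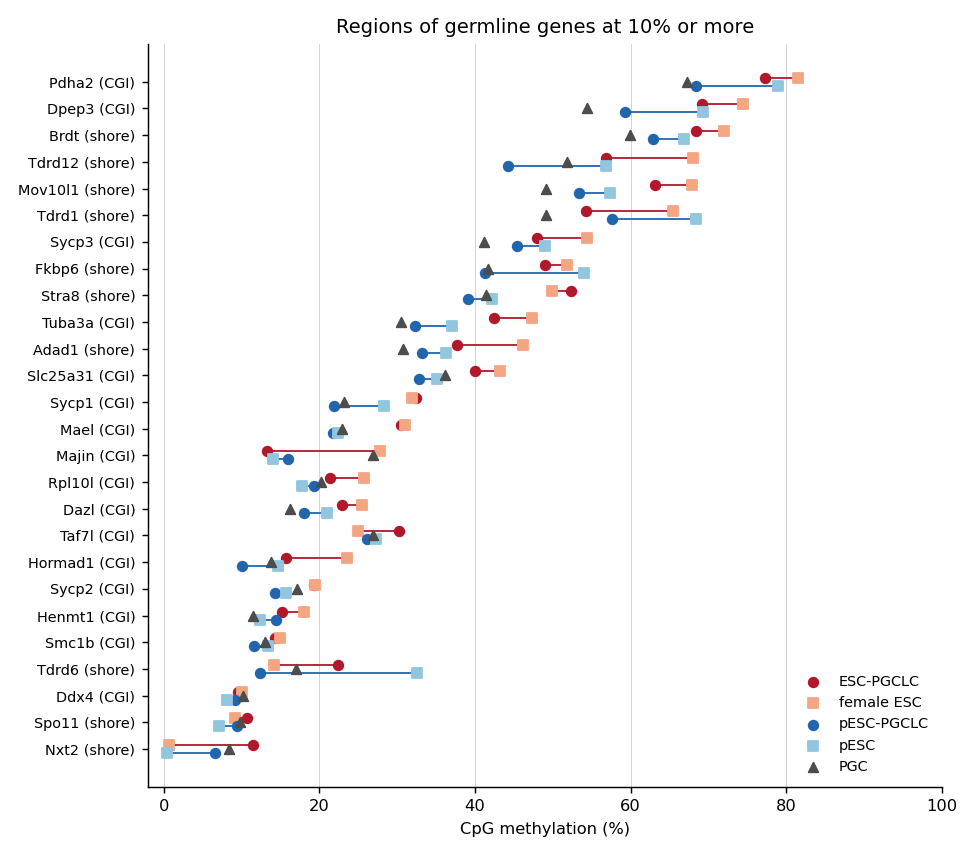
CpG methylation (%, x) of the region of 26 germline genes at 10% or more in ESC-PGCLC or female ESC (rows) in the 5 libraries; lines join ESC-PGCLC to female ESC (red) and pESC-PGCLC to pESC (blue). Of these 26, 20 were lower in ESC-PGCLC; Tdrd6, Nxt2 and Taf7l are among the exceptions.

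Genes of pluripotency and early lineages had low levels on both sides, under 5% at every measured member of these lists but Lefty1. The median naive pluripotency gene was at 1.57% in ESC-PGCLC, beside 1.35% in female ESC (4 of 9 lower), primed epiblast genes 1.49% and 1.53% (7 of 12 lower), and PGC specification genes 1.69% and 1.59% (1 of 4 lower). Among them, Prdm1, which encodes a repressor of somatic genes in germ cell precursors, was at 3.46% in ESC-PGCLC and 1.89% in female ESC, Prdm14 at 1.74% and 1.91%, and Kit at 1.64% and 1.18%. Lefty1, a Nodal antagonist, was at 7.02% against 10.8%. All 5 measured trophoblast genes were higher, by at most 0.305 points, with a median of 1.54% in ESC-PGCLC and 1.36% in female ESC. With CHH taken out their median difference was 0.00418 points, against 0.141. The counts of these lists stand beside 40.7% lower of all protein-coding genes and 38.1% lower of those under 5% in pESC.

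Marker genes of cells that could accompany the samples were mostly low too. Feeder fibroblast genes had medians of 2.70% and 2.57% (2 of 4 lower), with Thy1 at 3.99% in ESC-PGCLC and 4.23% in female ESC. Gonadal somatic genes had 1.99% and 1.63% (6 of 11 lower), with Nr5a1, a nuclear receptor gene, at 70.2% against 77.8%, Tcf21 at 35.0% against 46.2% and Emx2 at 4.07% against 6.20%. Both counts stand beside 40.7% lower of all protein-coding genes. The part of such cells in the results was not tested.

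Dnmt3l, the cofactor of the de novo methyltransferases, was at 24.9% in ESC-PGCLC and 39.0% in female ESC on its shore, and at 30.3% and 33.7% in pESC-PGCLC and pESC; the other 13 measured genes of the methylation machinery had differences within 0.606 points. Hoxd4 was at 33.6% against 50.5%, in a list of Hox genes with 15 of 37 members lower (40.5%, beside 40.7% of all protein-coding genes). Clustered protocadherins, neuronal adhesion genes, had 20 of 26 lower, beside 40.7% of all protein-coding genes and 88.7% of those at 20% or more in pESC. Of all 12078 protein-coding genes 11137 were tied to a CGI, but only 10 of the 26 protocadherins were. Of all shores 61.3% were lower. The protocadherin median difference was -1.22 points (-0.327 over CGIs alone). Pcdhb17 was at 27.7% against 40.3%, Pcdha1 at 6.74% against 18.5%, Pcdhb20 at 20.9% against 29.0% and Pcdhgb5 at 10.9% against 2.45%. The 26 members share 25 regions. Rhox13, of the X-linked homeobox cluster, was at 27.9% against 38.4%.

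Of 319 measured X-linked genes, 159 were lower and 159 higher, or 49.8% lower beside 40.7% of all protein-coding genes; the median level was 1.63% in ESC-PGCLC, beside 1.54% in female ESC. X-linked CGIs had a mean loss of 11.8%, outside the 1.35% to 8.45% of the 19 autosomes, and X-linked shores a mean loss of 9.50%, under the 10.2% to 15.3% of the autosomes. X-linked shores that were at least 5 points higher made up 5.37% (21 of 391), against 1.92% to 3.56% on each autosome. In the parthenogenetic pair X-linked CGIs went the other way, with a loss of -4.72%, against -4.14% to 2.85% on the autosomes. X-linked shores lost 2.15% there, against 5.52% to 8.01% on the autosomes. Of these shores 6.91% were at least 5 points higher in that pair, against at most 4.06% on an autosome. Taf9b, a transcription factor subunit gene, was at 54.7% against 70.6%, Mycs at 7.19% against 21.5%, and the shore of Rtl4 at 22.5% against 35.7%.

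The shore of Ftx, a noncoding RNA gene of the X-inactivation centre, had the widest upward difference among the measured CGIs and shores of the X (chromosome X, 103617098 to 103619099). It was at 33.0% in ESC-PGCLC and 7.14% in female ESC, and the parthenogenetic pair had 27.9% in pESC-PGCLC and 3.57% in pESC, with 26.3% in PGC. The shore of Dlg3, a synaptic scaffold gene, stood at 64.0% in ESC-PGCLC against 43.3% in female ESC, but at 53.8% in pESC-PGCLC and 66.1% in pESC. Lancl3 was at 27.8% against 6.67%, and at 14.3% and 15.0% in the parthenogenetic pair. These 3 were named after their values were seen.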

How the data were processed

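Methylation was measured by RRBS in 5 mouse libraries, 1 per group. Per the submitters' processing notes, Bismark 0.16.3 and Bowtie2 were used with the build mm10; what each tool did and which filters were set was not given in sources used here. Each deposited value is a fraction (0 to 1), the share of methylation in a region, listed with its class and cytosine context; percent is 100 times that fraction. No read counts are given, so depth is unknown and no interval can be had.

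CG-context regions listed in all 5 libraries were compared by level (Python 3.11.15, pandas 2.3.3, numpy 2.4.6). No test was run; 25 points stood in for a call. Means weight regions equally. CGI and shore coordinates are as deposited, with a counting base that is not stated. Genes were tied by RefSeq GRCm38.p6 coordinates to the longest CGI within 1000 bp of a gene end, or else the longest shore. Ensembl IDs of promoters and gene parts matched 0 symbols. Regions of different classes can share CpG sites.

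Named genes are all measured imprinted members, up to 10 CGIs in each direction, up to 4 members of each other list and 5 repeat families at each end; others are said to be chosen after values were seen, and 1 result that the rule names is not reported here. The members and lists were chosen with earlier results of these data known. The code for calls and class means was run on simulated levels with known differences, which are not results. Alternatives covered region choice, exact 0 and 100% levels, CHH subtraction, thresholds, CGI length and bins.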

Additional observations from a re-analysis of the deposited data

Results flagged for a closer look

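Several results had opposite signs in the biparental pair (ESC-PGCLC minus female ESC) and in the parthenogenetic pair (pESC-PGCLC minus pESC); with 1 library a group, none of these differences was tested. The mean over CGIs differed by -0.237 points in the biparental pair and by 0.0354 points in the parthenogenetic pair. The median over primed epiblast genes differed by -0.0737 and 0.301 points. X-linked CGIs had a mean loss of 11.8% in the biparental pair and of -4.72% in the parthenogenetic pair. Among 185 named or listed regions, 16 had opposite signs with at least 2 points on each side.

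At islands, Majin differed by -14.5 points in the biparental pair and 2.00 in the parthenogenetic pair, Niban1 by 11.1 and -11.8, Gm5522 by 10.5 and -16.8, Tfap2b by 10.2 and -7.41, and the island of Rabgap1 and Zbtb26 by 5.65 and -5.35. Henmt1, which encodes the piRNA methyltransferase, differed by -2.79 and 2.15 points, and Impact by 2.03 and -2.28.

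At shores, Tdrd6 differed by 8.24 points in the biparental pair and -20.2 in the parthenogenetic pair, Stra8 by 2.48 and -3.06, Tcf21 by -11.1 and 4.31, and Dlg3 by 20.7 and -12.3. The promoter of ENSMUSG00000097294 differed by -54.8 and 7.68 points. Shores of imprinted genes did so at Kcnq1ot1 (11.2 and -10.0), Zrsr1 (2.65 and -7.46), Nnat (-3.34 and 5.42) and Dlk1 (7.41 and -7.09). Some flagged levels are simple fractions or exactly 0. This Kcnq1ot1 shore was at 37.5% in ESC-PGCLC, 26.3% in female ESC, 40% in pESC-PGCLC and 50% in pESC. The Dlk1 shore was at 0% in female ESC. Without read counts the counting error of these differences is unknown. The Kcnq1ot1 island (3.86 and 7.32) and its other shore (3.81 and 7.11) were higher in both pairs. The Zrsr1 island given above differed by 0.0126 and 1.99 points.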

How the results depend on the processing

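Of 267 values recomputed under another setting, 189 kept their direction and size class, 69 moved and 9 changed sign; of 25 class means, 23 were kept. No paired analysis was possible because each group has 1 library. A coverage minimum could not be tried, as no coverage is given, and no replicate could be left out.

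The CGI mean difference was -0.0346 points over CGIs of more than 400 bp and -0.373 with CHH taken out, and the imprinted median -0.0824 over CGIs alone. Bins by the female ESC level, which is on one side of the difference, gave 7.92 points for promoters from 80% up, and 1.94 (20% to 40%) and 12.3 (from 80% up) for repeats. With CHH taken out, medians changed sign in CGIs (-0.0656), 5′ UTRs (-0.0801), Hox (-0.022), feeder (-0.113), naive pluripotency (-0.0802) and paternally methylated genes (-0.0374). With CGIs alone they did so for the methylation machinery (0.0182) and gonadal genes (0.116). Without levels of exactly 0 or 100% the RMER17C loss was 0.314%; the cause was not tested.

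At 10 points, 135 CGIs, 1350 promoters and 9115 repeats were lower and 8, 164 and 1644 higher; at 40 points 2, 10 and 270 were lower and, of promoters and repeats, 3 and 114 higher. With female ESC levels scaled by the ratio of the class means, 5 CGIs, 33 promoters and 559 repeats were lower and 1, 23 and 451 higher. Exons had 42 lower and 52 higher. CGIs of more than 400 bp had 1 lower and 0 higher, CGIs listed in both libraries 2 higher, and repeats without exact levels 216 higher.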

Other observations

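Repeat levels varied along the element in some families. L1MdA entries that start in the first 500 bases of the consensus, the promoter end of a full-length L1, averaged 62.6% in ESC-PGCLC and 68.3% in female ESC, and those that start between 4000 and 6000 bases 46.0% and 50.0%. L1MdF entries averaged 60.1% and 64.5% in the first part, a loss of 6.93%, and 45.3% and 50.9% in the second, a loss of 10.9%. L1MdTf entries had 48.2% in ESC-PGCLC and 53.3% in female ESC in the first 500 bases (a loss of 9.51%), 49.7% and 53.8% between 4000 and 6000 (7.54%), and 50.7% and 57.0% between 6000 and 8000 (11.1%). The L1MdA losses over the same segments were 8.35%, 7.87% and 8.34%. IAPEz-int entries in the first 500 bases averaged 75.04% and 77.15%.

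Promoter entries carry Ensembl IDs with no symbol here, and 4 are given as values. ENSMUSG00000049643 was at 8.57% in ESC-PGCLC and 78.3% in female ESC, with 7.5% in pESC-PGCLC and 78.3% in pESC. ENSMUSG00000097294 was at 37.5% and 92.3%, with 45.5% and 37.8% in the parthenogenetic pair. ENSMUSG00000020664 was higher, at 50.7% in ESC-PGCLC and 1.28% in female ESC, with 53.0% in pESC-PGCLC and 1.50% in pESC. ENSMUSG00000054003 was at 64.3% and 8.33%, with 67.9% and 69.4% in the parthenogenetic pair. Of the 77 promoters that were 25 points lower, 48 had a measured exon entry of the same gene, lower in 32 (beside 63.0% of all exons), and 35 an intron entry, lower in 31 (beside 71.3% of all introns). Of the 21 promoters that were 25 points higher, 17 had an exon entry, higher in 11 (beside 7609 of all 20707 exons). An intron entry was present for 15, higher in 7 (beside 5708 of all 19966 introns).

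ESC-PGCLC listed 55515 repeat entries and female ESC 48167, of which 46641 were listed by all libraries.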
